A study of Homo sapiens with 6 samples.

Results

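The genes described here encode the nuclear subunits of oxidative phosphorylation, the chain of inner-membrane complexes by which mitochondria turn food into ATP. A gene was a member when it was annotated as protein-coding and its symbol belonged to the NDUF subunits of complex I, the SDH subunits of complex II, the UQCR subunits and CYC1 of complex III, cytochrome c (CYCS), the COX4 to COX8 subunits of complex IV, or the ATP5 subunits of complex V with its inhibitor ATP5IF1. The deposited table held 61496 features, of which 19887 were annotated as protein-coding, and 91 of these were members. Complex I had 37 members, complex II 4, complex III 10, cytochrome c 1, complex IV 19 and complex V 20. NDUFA4 and its paralogue NDUFA4L2 carry complex I names but were counted with complex IV, where NDUFA4 is known to sit. The acyl carrier subunit NDUFAB1 has a symbol outside this rule and was not taken.

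The cells were U251, an established human glioma line grown in DMEM with serum. There were 6 libraries of total RNA depleted of ribosomal RNA, 3 from untreated control cells and 3 from cells given sevoflurane (Sev), a volatile anesthetic, for 2 h. The protocol lists gas at 1.7, 3.4 and 5.1% without assigning a concentration to a library, and the study's own plot of these comparisons names 5.1%. Nothing in the labels says that the 3 libraries of a group came from separate cultures, so the p-values measure the spread between these libraries, which may be technical. The libraries held between 38624292 and 46318311 counts. All 7 glial or glioma markers checked were present, with VIM between 5123 and 6497 CPM and GFAP between 201 and 373 CPM. Of 5 markers of other cell types, PTPRC, EPCAM and HBB had at most 12 counts in any library, PECAM1 had 21 to 55 and RBFOX3 42 to 76. S100B lay between 18.3 and 28.5 CPM in control and between 10.1 and 10.6 in Sev, and CD44 between 364 and 402 CPM in control and between 711 and 788 in Sev. TNC lay between 1153 and 1192 CPM in control and between 1341 and 1899.6 in Sev. Their part in the results below was not tested.

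Complexes I and II take electrons from NADH and succinate, complex III passes them from ubiquinol to cytochrome c, and complex IV gives them to oxygen. The protons moved by complexes I, III and IV drive ATP synthesis by complex V. Complexes I, III, IV and V are built from subunits of both genomes, whereas complex II is wholly nuclear. In glioma, as in many tumors, glycolysis is high, yet respiration is generally kept.

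The fold changes of the nuclear subunit mRNAs, Sev over control, lay modestly above those of the rest of the transcriptome. Of the 91 members 86 passed the filter on low counts. The 5 that did not were NDUFC2-KCTD14, COX4I2, COX6A2, COX7B2 and COX8C. Of those tested, 71 had a fold change above 0 on the log2 scale and 15 one below 0. When library size alone set the scale, 53 lay above 0 and 33 below it. By the quasi-likelihood test of edgeR, with p adjusted by Benjamini-Hochberg over 27514 features and a limit of 0.05, 26 members (30.2%) were higher and 3 (3.49%) were lower in Sev. Over all tested features the same rule called 22.1% higher and 21.5% lower, and over tested protein-coding genes 25.0% and 21.0%. The share called higher was therefore near the background, and the share called lower was below it. The median log2 fold change of the members was 0.22, against −0.0056 over all tested features and 0.038 over protein-coding genes. Among 11052 protein-coding genes with a mean level between 2.01 and 133 CPM, the span that holds most members, the median was −0.017, with 22.4% called higher and 24.3% lower.

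The differences were small. The 26 members called higher differed by 1.19- to 1.53-fold, and the 3 called lower stood at 0.725 to 0.807 of control. No member passed the study's threshold of a log2 fold change beyond 1 with an unadjusted p under 0.05, by edgeR, by DESeq2 or by limma on FPKM, although 34 members were higher and 5 lower at an unadjusted p under 0.05. That threshold was passed by 23.5% of all tested features and 16.7% of protein-coding genes. In 36 members (41.9%) every Sev library lay above every control library, against 28.3% of all tested features, and in 8 (9.30%) every Sev library lay below, against 28.2%.

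How many members were called depended on the scaling and on single libraries. When libraries were scaled by their size alone, without the TMM factors, which were between 1.03 and 1.08 in control and between 0.918 and 0.988 in Sev, 6 members were called higher and 9 lower. The 6 were NDUFV2, NDUFC2, UQCRFS1, CYC1, UQCRH and ATP5F1B, and the other members called higher with TMM lost the call on that scale. That scaling moved the median of all features to −0.147 and that of the members to 0.085. The members lay 0.23 above all features under either scaling. This gap could hardly change, since scaling shifts all features of a library alike. The gap was smaller in other fits, at 0.157 without an expression filter and 0.074 with limma on log2(FPKM + 1) without a filter. Without Sev replicate 1 the test called 10 members higher, without Sev replicate 3 it called 17, without control replicate 1 it called 12 and without control replicate 3 it called 13. The number called lower was 1 without Sev replicate 1, Sev replicate 2 or control replicate 2. Called in every one of the 6 leave-one-out fits were NDUFV2, NDUFA9, NDUFB9, NDUFC2, NDUFS3, UQCRFS1, CYC1, UQCRH, COX7A2 and ATP5F1B, all higher, and NDUFV3, which was lower. Library by library, the median over members of log2 CPM relative to the control mean was −0.10, 0.082 and 0.0094 in control replicates 1 to 3 and 0.23, 0.19 and 0.21 in Sev replicates 1 to 3. Since RNA was measured per library and not per cell, more of these transcripts in each cell and less of the other RNA cannot be told apart.

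**Figure D1:**
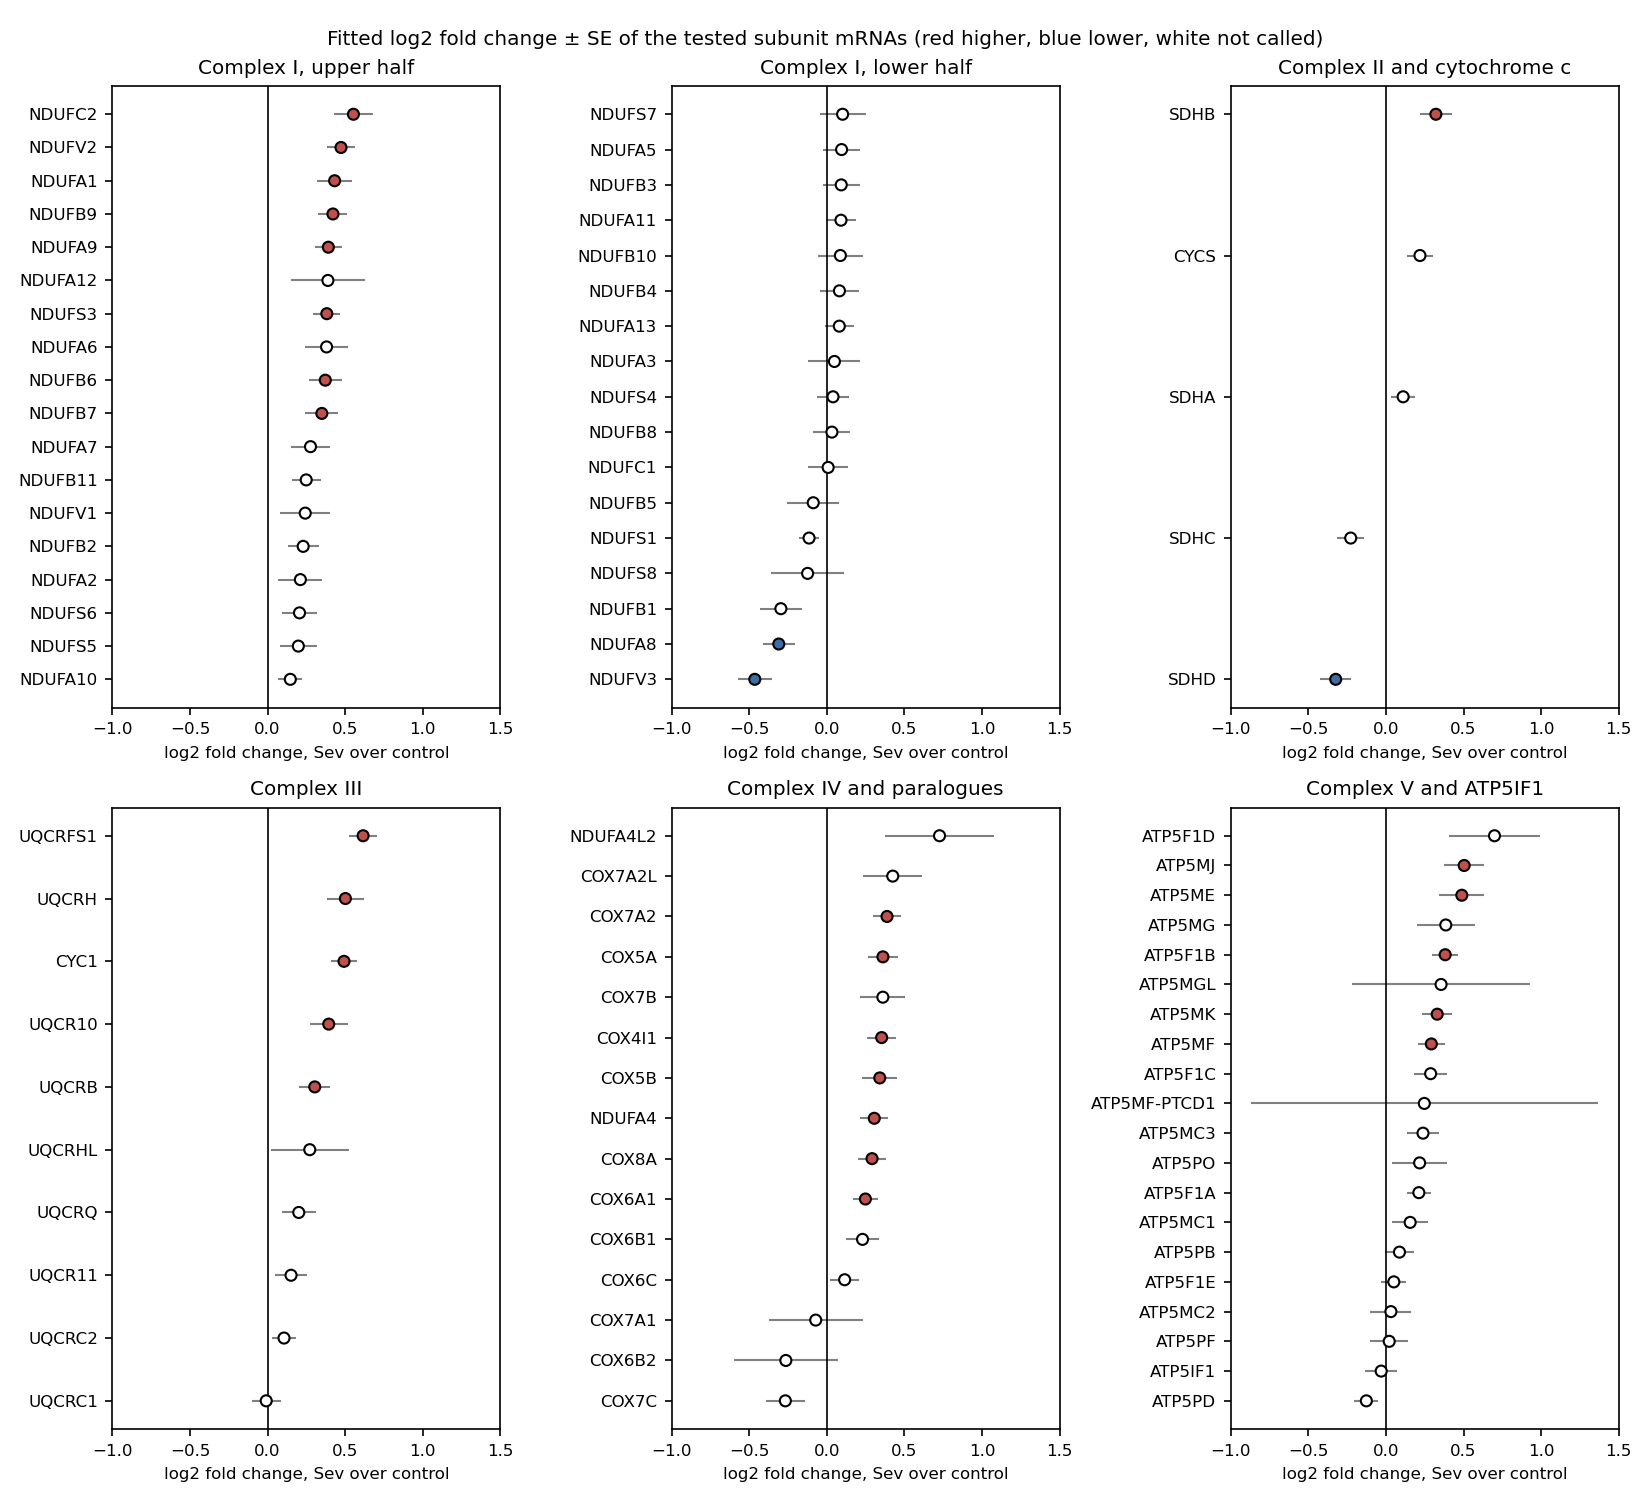
Fitted log2 fold change of Sev over control for the tested members except 1 that is not shown, with bars of ± SE, sorted within each complex. Red points were called higher and blue points lower at an adjusted p under 0.05, and white points were not called. Most points lie to the right of 0 with TMM scaling, and every called member lies between −0.46 and 0.62.

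**Figure D2:**
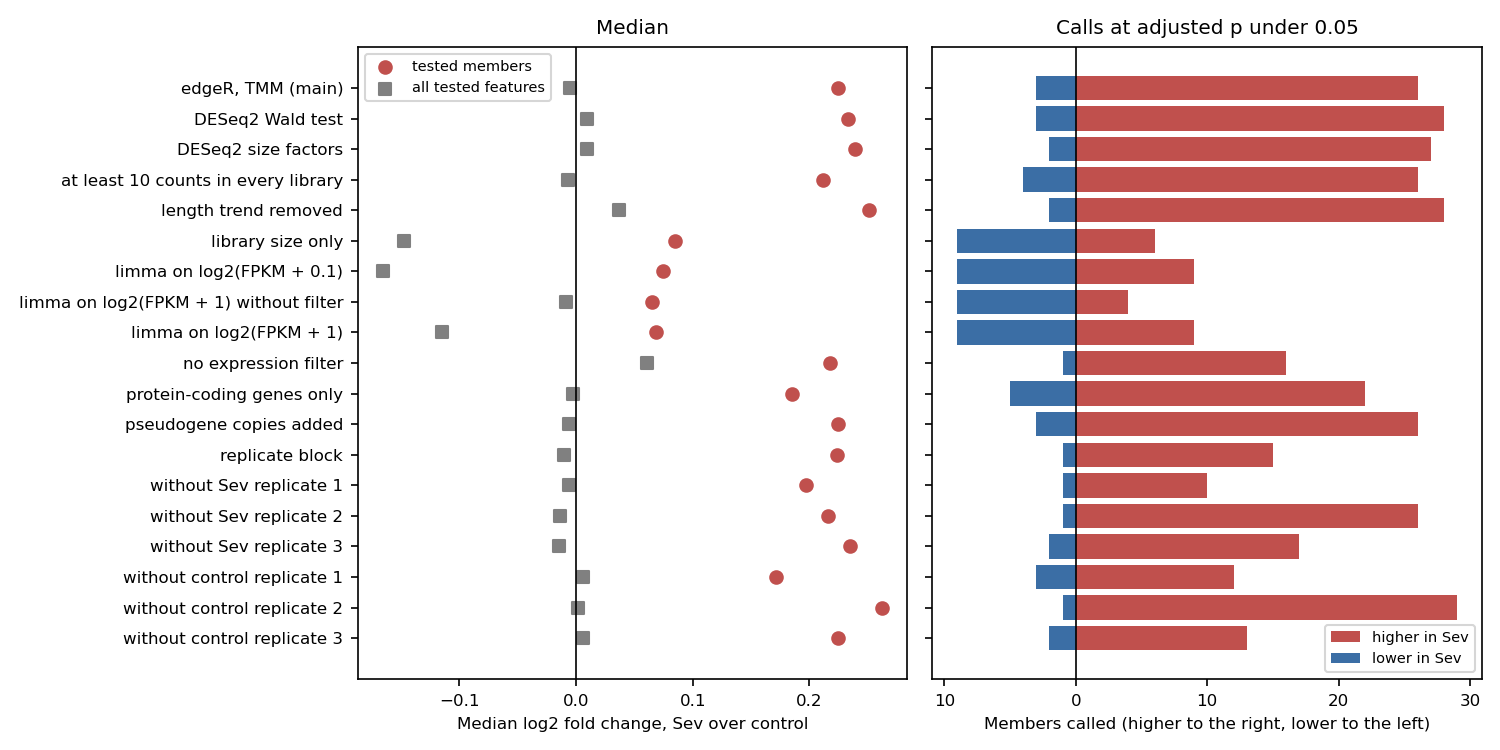
Left, the median log2 fold change of the tested members (red circles) and of all tested features (grey squares) under the fit reported here and 18 alternatives. Right, the number of members called higher (to the right) and lower (to the left) under each. The members' median was above 0 and above that of all features in each of these fits, while the calls went from 26 higher and 3 lower to 6 higher and 9 lower with library size only.

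The promoters of respiratory chain genes are known for sites of a few shared factors: nuclear respiratory factor 1 (NRF1), the ETS-family factor GABP, which is also called nuclear respiratory factor 2, YY1 and CREB. For 71 of the 91 members the RefSeq table of promoters on GRCh38.p14 gives at least 1 window, from 250 bases before to 50 after the start. The windows were searched on both strands for GCGCA followed by any base and GCGC (NRF1), CCGGAAG (GABP), AAGATGGC (YY1) and TGACGTCA (CREB), letters that were chosen with the expression results in view. Of the 71 members, 17 (23.9%) held the NRF1 letters, 21 (29.6%) the GABP letters, 12 (16.9%) the YY1 letters and 5 (7.04%) the CREB letters, and 44 (62.0%) held at least 1 of the 4. Over all 27305 genes with a window the shares were 6.98, 12.2, 3.52 and 2.25%, and over 12023 tested protein-coding genes 11.9, 20.0, 5.72 and 3.55%. The GABP and YY1 letters stood together in 2 members.

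Among the 19 members called higher that have a window, 11 (57.9%) held the GABP letters, against 9 of 45 (20.0%) tested members that were not called. For the NRF1 letters the counts were 5 of 19 and 9 of 45, for YY1 2 of 19 and 10 of 45, and for CREB 2 of 19 and 3 of 45. Of the 3 members called lower, 2 held the NRF1 letters and 1 the GABP letters. Over all tested protein-coding genes the GABP letters were in 19.5% of those called higher, 20.8% of those called lower and 20.0% of those not called. These counts describe letters in a window, with no test, and a match is not a bound site. They also rest on calls that depended on the scaling and on single libraries. Among members called in all 6 leave-one-out fits, NDUFS3 and UQCRH held the GABP letters. NDUFV2, NDUFA9, UQCRFS1 and COX7A2, called as steadily, had a window without them.

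The 120 bases before the start are shown for 5 members called higher and for SDHD, called lower, as examples from complexes I to IV of where these letters lie. Each reads 5′ to 3′ on the strand of the gene and ends with the base before the RefSeq start, with matches on either strand that lie wholly before the start in capitals. The NRF1 letters are in UQCRFS1 and SDHD, and the GABP letters are in the other 4 and in SDHD.
UQCRFS1 (chr19:29213152-29213271, minus strand): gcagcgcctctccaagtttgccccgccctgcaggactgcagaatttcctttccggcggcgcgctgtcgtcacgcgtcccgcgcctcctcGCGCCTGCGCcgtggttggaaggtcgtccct
UQCRH (chr1:46303578-46303697, plus strand): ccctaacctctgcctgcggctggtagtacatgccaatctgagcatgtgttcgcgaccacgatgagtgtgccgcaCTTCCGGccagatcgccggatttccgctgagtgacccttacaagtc
COX5B (chr2:97645942-97646061, plus strand): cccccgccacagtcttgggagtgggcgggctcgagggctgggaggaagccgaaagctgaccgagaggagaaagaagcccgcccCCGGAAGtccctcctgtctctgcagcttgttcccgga
COX8A (chr11:63974500-63974619, plus strand): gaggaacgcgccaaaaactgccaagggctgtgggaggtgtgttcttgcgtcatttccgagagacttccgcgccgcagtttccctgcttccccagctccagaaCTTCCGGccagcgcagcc
NDUFB7 (chr19:14572067-14572186, minus strand): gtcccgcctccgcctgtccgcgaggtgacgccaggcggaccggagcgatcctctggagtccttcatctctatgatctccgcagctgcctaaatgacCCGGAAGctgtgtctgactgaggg
SDHD (chr11:112086753-112086872, plus strand): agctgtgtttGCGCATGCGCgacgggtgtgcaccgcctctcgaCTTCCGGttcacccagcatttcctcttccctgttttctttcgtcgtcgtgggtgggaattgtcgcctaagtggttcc

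Complex III had 5 of 10 members called higher, against 22.1% of all features, and none called lower. By limma on FPKM or with library size only, 3 were called higher. None was lower at an unadjusted p under 0.05, by DESeq2 or by limma on FPKM. Its median log2 fold change was 0.29. The members called higher were 2 of the catalytic subunits, UQCRFS1 and CYC1, and the small subunits UQCRH, UQCR10 and UQCRB. UQCRFS1, the Rieske iron-sulfur protein that accepts the first electron from ubiquinol (chromosome 19, bases 29205321 to 29213541 of GRCh38 in GENCODE 29, minus strand), measured 67.1, 79.3 and 70.8 CPM in control replicates 1 to 3 and 115, 103 and 114 CPM in Sev replicates 1 to 3. The lowest Sev library lay well above the highest control library, and UQCRFS1 had the smallest adjusted p of all members (log2 fold change 0.62 ± 0.092 SE, adjusted p = 0.00162). CYC1, cytochrome c1, which hands the electron on to cytochrome c, measured 41.9, 44.9 and 45.8 CPM in control replicates 1 to 3 and 64.2, 59.5 and 62.8 CPM in Sev replicates 1 to 3. The groups did not overlap and the replicates lay close together (0.49 ± 0.081 SE, adjusted p = 0.00235).

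UQCRH, the acidic hinge protein beside cytochrome c1, measured 41.5, 52.6 and 49.9 CPM in control replicates 1 to 3 and 76.1, 62.9 and 64.8 CPM in Sev replicates 1 to 3. Sev replicate 1 was the highest, and all Sev libraries lay above control (0.50 ± 0.12 SE, adjusted p = 0.0115). UQCR10 and UQCRB, small subunits of the membrane part, were higher by 0.39 ± 0.12 and 0.30 ± 0.10 on the log2 scale (adjusted p = 0.0325 and 0.0409). The large matrix-facing core protein UQCRC1, by contrast, measured 212, 199.8 and 239 CPM in control replicates 1 to 3 and 212, 231 and 204 CPM in Sev replicates 1 to 3. Its groups overlapped fully (−0.0088 ± 0.093 SE, adjusted p = 0.948), and its fold change turned to 0.0067 with DESeq2's size factors. UQCRC2, the other core protein, did not pass the test either (0.11 ± 0.077 SE, adjusted p = 0.299), and its sign turned with library size only. UQCRQ, UQCR11 and UQCRHL, a copy of UQCRH with few counts, had log2 fold changes of 0.20, 0.15 and 0.27 and were not called.

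The ratio of 2 members within a library does not depend on how libraries are scaled. The ratio of UQCRFS1 to UQCRC1 counts was 0.317, 0.397 and 0.296 in control replicates 1 to 3 and 0.543, 0.448 and 0.561 in Sev replicates 1 to 3. Every Sev library was above every control library. This ratio and those below were chosen after the values were seen and have no test.

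**Figure D3:**
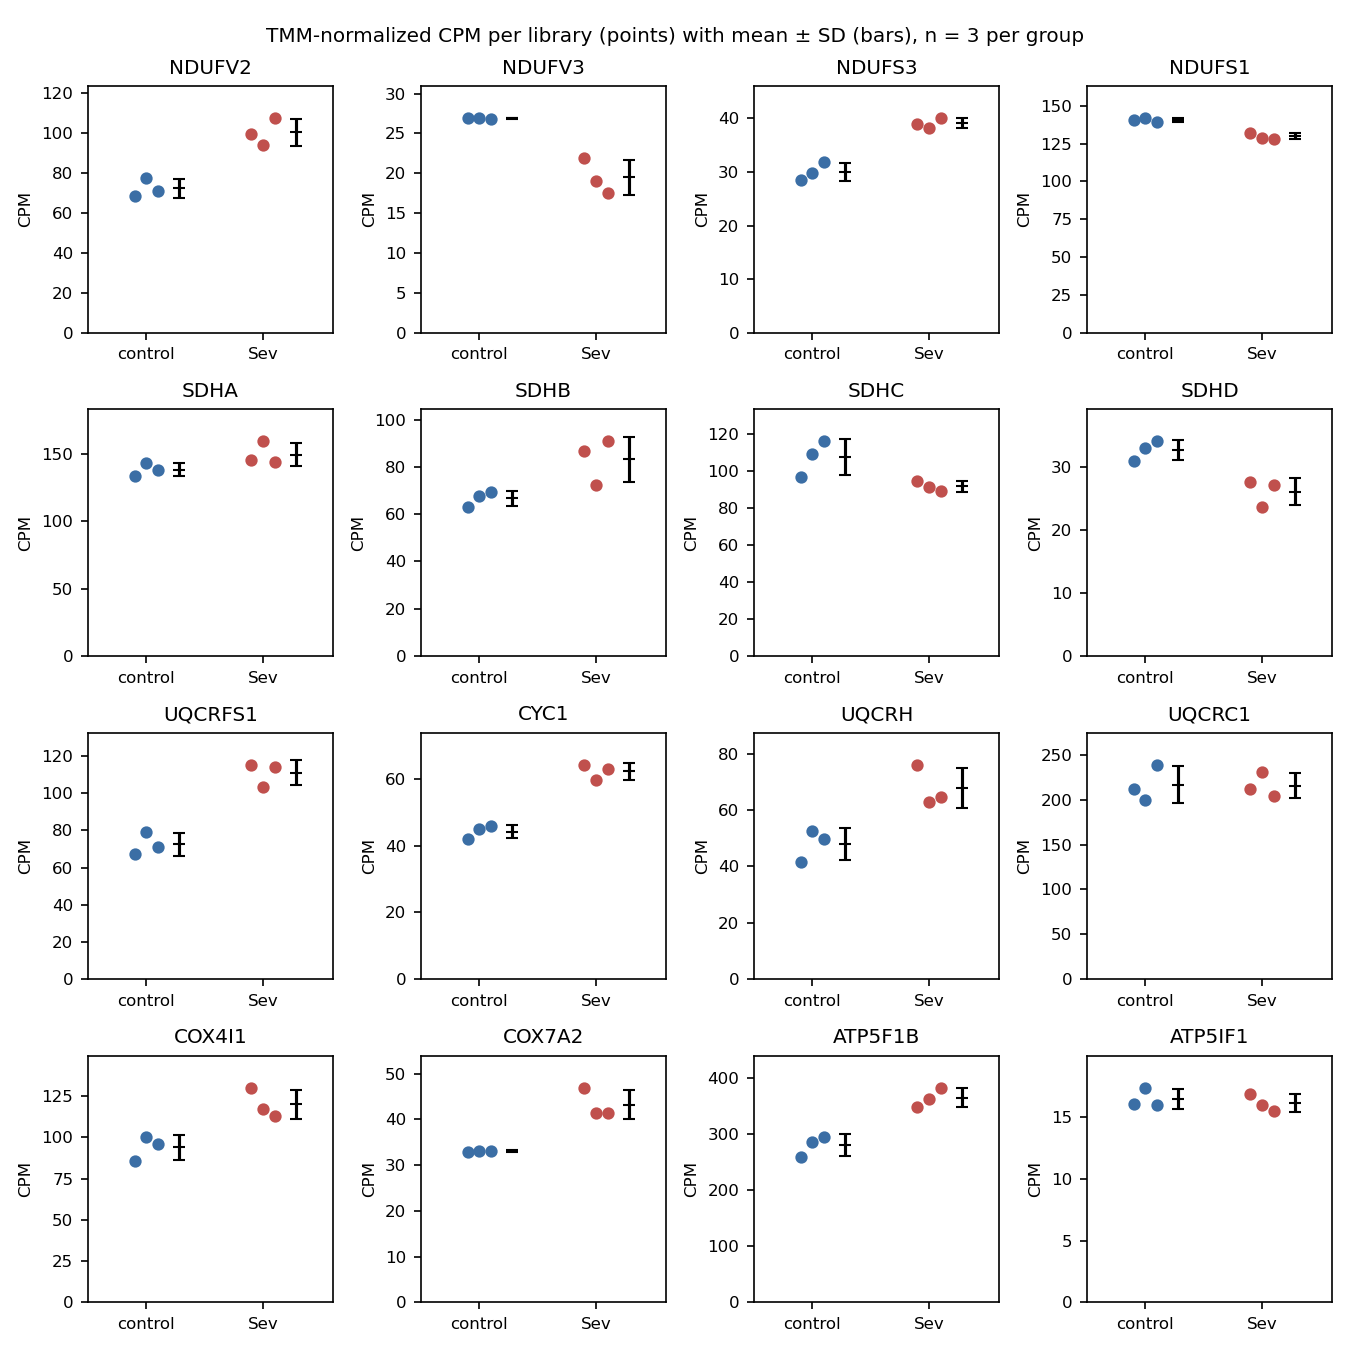
Level in CPM, scaled by TMM, of 16 members in each of the 6 libraries, with the mean ± SD of the 3 libraries of a group beside the points. In UQCRFS1, CYC1, UQCRH, NDUFV2, NDUFS3, COX7A2, COX4I1, ATP5F1B, SDHA and SDHB all Sev points lie above the control points, in NDUFV3, NDUFS1, SDHC and SDHD they lie below, and in UQCRC1 and ATP5IF1 the groups overlap.

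The 4 subunits of complex II form a single unit without mitochondrial partners. SDHB rose, SDHD fell, and SDHA and SDHC did not pass the test, so that 25.0% were called in each direction, near the 22.1% and 21.5% of all features. When library size alone set the scale, and by limma on FPKM, 0 were called higher and 2 lower. On the former scale SDHB was not called (adjusted p = 0.229) and SDHC was called lower, with a log2 fold change of −0.37 and an adjusted p of 0.00925. SDHB, the iron-sulfur subunit that carries electrons from the flavin to ubiquinone (chromosome 1, bases 17018722 to 17054170, minus strand), measured 63.0, 67.5 and 69.5 CPM in control replicates 1 to 3 and 86.6, 72.5 and 90.8 CPM in Sev replicates 1 to 3. All Sev libraries lay above control, with Sev replicate 2 close to it (0.32 ± 0.10 SE, adjusted p = 0.0363). SDHD, which with SDHC anchors the complex in the membrane and binds ubiquinone and heme (chromosome 11, bases 112086773 to 112120013, plus strand), measured 30.9, 33.1 and 34.1 CPM in control replicates 1 to 3 and 27.6, 23.6 and 27.1 CPM in Sev replicates 1 to 3. Here all Sev libraries lay below control (−0.32 ± 0.1 SE, adjusted p = 0.0317). SDHC measured 96.8, 109 and 116 CPM in control replicates 1 to 3 and 94.9, 91.4 and 89.0 CPM in Sev replicates 1 to 3, with the groups apart and an adjusted p short of the limit (−0.23 ± 0.089 SE, adjusted p = 0.0709). SDHB and SDHD each kept the call in 1 of the 6 leave-one-out fits.

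The ratio of SDHB to SDHD counts was 2.04 in each of the 3 control libraries and 3.14, 3.07 and 3.35 in Sev replicates 1 to 3. That of SDHB to SDHC was 0.651, 0.617 and 0.599 in control and 0.913, 0.794 and 1.02 in Sev. In neither ratio could the groups overlap, since SDHB lay above and SDHC and SDHD below control in every Sev library. In both ratios the control libraries were closer to each other than the Sev libraries were. SDHD shares 319 exonic bases with an unnamed gene on its own strand and 26 with TIMM8B on the other, and its 6 pseudogene copies held 6.48% of the summed counts of SDHD and its copies.

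SDHA, the flavoprotein that oxidizes succinate (chromosome 5, bases 218241 to 256700, plus strand), measured 133, 143 and 138 CPM in control replicates 1 to 3 and 145, 159 and 144 CPM in Sev replicates 1 to 3. All Sev libraries lay above control, by a margin that did not pass the test (0.11 ± 0.077 SE, adjusted p = 0.277). SDHA has 4 annotated pseudogene copies, and they held 37.1% of all counts assigned to SDHA or a copy, so that the division of reads among them bears on its value. SDHAP1 measured 78.8, 63.8 and 72.6 CPM in the control libraries and 40.5, 46.8 and 39.0 CPM in the Sev libraries and was lower in Sev (−0.77 ± 0.11 SE, adjusted p = 0.00142). SDHAP4, at 31.7, 29.3 and 30.8 CPM in the control libraries and 12.1, 13.9 and 14.4 CPM in the Sev libraries, was lower too (−1.19 ± 0.11 SE, adjusted p = 0.000214), and so was SDHAP3 (−1.09 ± 0.18 SE, adjusted p = 0.00261). With the counts of the copies added, SDHA turned from 0.11 to −0.24 ± 0.075 SE and was called lower (adjusted p = 0.0315). No other member changed direction and passed the test in this way. NDUFA8 lost its call with its single copy added (adjusted p = 0.0544), and the other members kept theirs.

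Complex I, the largest complex, had 8 of 36 tested members (22.2%) called higher, about the share over all features (22.1%), and 2 (5.56%) called lower, against 21.5%. The median on the log2 scale was 0.12. When library size alone set the scale it was −0.018, and 2 members were called higher and 5 lower. Of its 7 core subunits from the nucleus, which carry the flavin and the iron-sulfur clusters, NDUFV2 and NDUFS3 rose. The other 5 were not called, and none was called lower, with 1 lower at an unadjusted p under 0.05, 0 by DESeq2 and 2 by limma on FPKM. NDUFV2, an iron-sulfur subunit of the module that oxidizes NADH, measured 68.5, 77.5 and 70.8 CPM in control replicates 1 to 3 and 99.6, 94.1 and 107 CPM in Sev replicates 1 to 3. Its groups were well apart (0.47 ± 0.088 SE, adjusted p = 0.00398). NDUFV2 shares 771 exonic bases with an unnamed gene on its own strand. NDUFS3, a core subunit of the module that reduces ubiquinone, measured 28.5, 29.8 and 31.8 CPM in control replicates 1 to 3 and 39.0, 38.2 and 40.0 CPM in Sev replicates 1 to 3, again without overlap (0.38 ± 0.086 SE, adjusted p = 0.00918). With library size only NDUFS3 was at 0.24 and not called (adjusted p = 0.0681). It shares 721 exonic bases with PTPMT1 on its own strand and 234 with CELF1 on the other.

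NDUFV1, which binds NADH and the flavin, measured 49.0, 47.4 and 64.6 CPM in control replicates 1 to 3 and 71.0, 67.8 and 51.7 CPM in Sev replicates 1 to 3. Control replicate 3 lay above Sev replicate 3, and the groups overlapped (0.24 ± 0.16 SE, adjusted p = 0.252). NDUFS1, the largest iron-sulfur subunit, measured 141, 142 and 139 CPM in control replicates 1 to 3 and 132, 129 and 128 CPM in Sev replicates 1 to 3. All Sev libraries lay below control by a small amount that did not pass the test (−0.11 ± 0.067 SE, adjusted p = 0.202). With library size only NDUFS1 was called lower. NDUFS7 and NDUFS8 overlapped between groups, with log2 fold changes of 0.10 and −0.12. Neither had a stable sign, since the leave-one-out fits gave −0.042 to 0.21 for NDUFS7 and −0.35 to 0.036 for NDUFS8, and library size alone gave −0.047 for NDUFS7.

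The accessory subunits, which surround the core and are needed to build or hold it, had 6 of 29 (20.7%) called higher and 2 (6.90%) lower, against 22.1% and 21.5% of all features. On the scale of library size alone 1 was higher and 3 were lower. NDUFC2, of the membrane arm, rose most (0.55 ± 0.12 SE, adjusted p = 0.00901), and it shares 431 exonic bases with the readthrough gene NDUFC2-KCTD14, which had at most 20 counts in a library. NDUFA9, at the joint of the matrix and membrane arms, measured 33.4, 35.4 and 32.9 CPM in control replicates 1 to 3 and 43.6, 42.3 and 47.3 CPM in Sev replicates 1 to 3. NDUFB9, of the membrane arm, measured 25.3, 22.1 and 24.1 CPM in control replicates 1 to 3 and 32.5, 30.7 and 32.5 CPM in Sev replicates 1 to 3. In both the groups were apart (NDUFA9 0.39 ± 0.087 SE, adjusted p = 0.00867; NDUFB9 0.42 ± 0.094 SE, adjusted p = 0.0087). With library size only both lost the call, at 0.25 for NDUFA9 (adjusted p = 0.0685) and 0.28 for NDUFB9 (adjusted p = 0.0696). NDUFA9 shares 1103 and 606 exonic bases with unnamed genes on its own strand. NDUFB9 shares 677 with MTSS1 and 187 with TATDN1, both on the opposite strand. NDUFA1, NDUFB6 and NDUFB7, of the membrane arm as well, were called higher by 0.43, 0.37 and 0.35 on the log2 scale.

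NDUFV3, a small accessory subunit of the module that oxidizes NADH (chromosome 21, bases 42879644 to 42913304, plus strand), was the lowest of the tested members in fold change. It measured 26.9, 26.9 and 26.8 CPM in control replicates 1 to 3 and 21.9, 19.1 and 17.5 CPM in Sev replicates 1 to 3. The control libraries were nearly identical and every Sev library lay below them (−0.46 ± 0.11 SE, adjusted p = 0.011). NDUFA8, a subunit on the side of the intermembrane space, measured 16.7, 17.0 and 18.2 CPM in control replicates 1 to 3 and 13.6, 13.8 and 14.5 CPM in Sev replicates 1 to 3. It too fell without overlap (−0.31 ± 0.10 SE, adjusted p = 0.0415), and the call was lost in each of the 6 leave-one-out fits. The 21 further accessory subunits were not called, and their log2 fold changes were between −0.30 for NDUFB1 and 0.39 for NDUFA12.

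Within the module that oxidizes NADH, NDUFV2 and NDUFV3 thus moved apart. The ratio of NDUFV2 to NDUFV3 counts was 2.55, 2.88 and 2.64 in control replicates 1 to 3 and 4.55, 4.93 and 6.14 in Sev replicates 1 to 3. This ratio could not overlap between the groups, since NDUFV2 lay above and NDUFV3 below control in every Sev library.

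Complex IV had 7 of 15 tested members (46.7%) called higher, against 22.1% of all features, and none lower, with a median log2 fold change of 0.31. None was lower at an unadjusted p under 0.05 or by DESeq2, while limma on FPKM called 1 higher and 1 lower, and library size only 0 higher and 1 lower. The 7 were COX4I1, COX5A, COX5B, COX6A1, COX7A2, COX8A and NDUFA4, nuclear subunits that surround the catalytic core made by mitochondrial DNA. COX7A2, the form of subunit VIIa found in most tissues, measured 32.8, 33.1 and 33.2 CPM in control replicates 1 to 3 and 46.9, 41.4 and 41.4 CPM in Sev replicates 1 to 3. The control libraries were close to each other and all Sev libraries lay above (0.39 ± 0.088 SE, adjusted p = 0.00944). COX5A, on the matrix side, measured 31.2, 33.9 and 36.6 CPM in control replicates 1 to 3 and 44.6, 41.1 and 45.0 CPM in Sev replicates 1 to 3. COX4I1, the large subunit that is regulated by ATP, measured 85.7, 100.2 and 95.8 CPM in control replicates 1 to 3 and 130.0, 117 and 113 CPM in Sev replicates 1 to 3. Neither overlapped between the groups (COX5A 0.36 ± 0.095 SE, adjusted p = 0.0168; COX4I1 0.35 ± 0.093 SE, adjusted p = 0.0172). COX5B, COX6A1, COX8A and NDUFA4 were higher by 0.34, 0.25, 0.29 and 0.31 on the log2 scale. With library size only none of the 7 was called. Their fold changes kept their direction, which says little, since they were picked as called with TMM.

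COX7C, a small subunit next to them in the complex, measured 87.2, 105 and 104 CPM in control replicates 1 to 3 and 87.8, 89.3 and 69.4 CPM in Sev replicates 1 to 3. Its groups overlapped and it was not called (−0.27 ± 0.12 SE, adjusted p = 0.116). With library size only COX7C was called lower, by −0.41 on the log2 scale (adjusted p = 0.0149). The ratio of COX4I1 to COX7C counts was 0.983, 0.954 and 0.919 in control replicates 1 to 3 and 1.48, 1.31 and 1.62 in Sev replicates 1 to 3. COX6B1, COX6C and COX7B were not called, at 0.23, 0.12 and 0.36. COX7A2L, which joins complexes III and IV into supercomplexes, measured 23.4, 17.0 and 14.8 CPM in control replicates 1 to 3 and 20.8, 24.9 and 28.5 CPM in Sev replicates 1 to 3, and control replicate 1 lay among the Sev libraries (0.43 ± 0.19 SE, adjusted p = 0.108).

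Several complex IV subunits have forms for other tissues or conditions, and these were measured at low levels or not at all. COX6A2, the form of heart and muscle, and COX7B2 had 0 counts in each of the 6 libraries. COX4I2, the form of lung that is also induced by hypoxia, had at most 7 counts and COX8C at most 2. In shares of the summed FPKM of a pair, COX4I1 held 99.5% ± 0.498 (SD, n = 3) in control and 99.3% ± 0.298 in Sev. COX7A1, the form of heart and muscle, held 7.14% ± 1.82 of the pair with COX7A2 in control and 5.37% ± 1.30 in Sev (exact permutation test, two-sided, p = 0.3). NDUFA4L2, a target of hypoxia signaling, held 1.82% ± 0.661 of the pair with NDUFA4 in control and 2.46% ± 0.542 in Sev (exact permutation p = 0.3). COX6B2 held 0.481% ± 0.155 of its pair in control and 0.316% ± 0.124 in Sev (exact permutation p = 0.3). As single genes, COX6B2 and COX7A1 had log2 fold changes of −0.26 ± 0.34 and −0.071 ± 0.30 (SE) and were not called. With 3 libraries a group this test cannot give a p below 0.1.

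As a single gene NDUFA4L2 had the largest fold change of the tested members, at few counts. It measured 0.898, 2.25 and 1.36 CPM in control replicates 1 to 3 and 3.21, 2.21 and 2.02 CPM in Sev replicates 1 to 3. Control replicate 2 lay within the Sev range, and it was not called (0.73 ± 0.35 SE, adjusted p = 0.129).

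In complex V, 5 of 20 tested members (25.0%) were called higher, near the 22.1% of all features and the 25.0% of protein-coding genes, and none was called lower, with a median of 0.24. None was lower at an unadjusted p under 0.05 or by DESeq2. With library size only, and by limma on log2(FPKM + 1), 1 was called higher and 1 lower. Its parts differed in how many members were called. In the catalytic head ATP5F1B was called of 5 subunits, with 4 higher at an unadjusted p under 0.05, and in the ring of c subunits none of 3, with 1 higher at an unadjusted p under 0.05. Of the 4 subunits of the peripheral stalk none was called in either direction, none had an unadjusted p under 0.05, and 1 was lower by limma on FPKM. Of the 5 small subunits around the membrane part, which hold dimers of the enzyme together or stabilize them, 4 were called higher, but none with library size only or by limma on FPKM.

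ATP5F1B, the catalytic beta subunit (chromosome 12, bases 56638175 to 56646068, minus strand), was the member with the most counts. It measured 259, 286 and 296 CPM in control replicates 1 to 3 and 349, 363 and 383 CPM in Sev replicates 1 to 3. Every Sev library lay above every control library (0.38 ± 0.083 SE, adjusted p = 0.00778). ATP5F1A, the alpha subunit, measured 188, 206 and 189.5 CPM in control replicates 1 to 3 and 237, 225 and 214 CPM in Sev replicates 1 to 3, also without overlap but short of the limit (0.21 ± 0.077 SE, adjusted p = 0.0565). ATP5F1D, the delta subunit of the central stalk, measured 20.6, 20.0 and 42.6 CPM in control replicates 1 to 3 and 46.9, 52.1 and 36.4 CPM in Sev replicates 1 to 3. Control replicate 3 was about as high as the Sev libraries, and the large fold change was not called (0.70 ± 0.29 SE, adjusted p = 0.0891). The gamma and epsilon subunits ATP5F1C and ATP5F1E had log2 fold changes of 0.29 and 0.051 and were not called.

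The small membrane subunits ATP5MJ and ATP5MK were called higher. ATP5MJ measured 14.8, 17.3 and 17.3 CPM in control replicates 1 to 3 and 24.6, 20.1 and 25.2 CPM in Sev replicates 1 to 3, and ATP5MK measured 50.5, 53.6 and 56.7 CPM in control replicates 1 to 3 and 73.0, 60.5 and 68.7 CPM in Sev replicates 1 to 3. In both the groups were apart (ATP5MJ 0.50 ± 0.13 SE, adjusted p = 0.0148; ATP5MK 0.33 ± 0.097 SE, adjusted p = 0.0267). ATP5ME and ATP5MF, subunits e and f, were higher by 0.49 and 0.29, and ATP5MG, subunit g, overlapped between groups at 0.39. The calls of ATP5MJ and ATP5ME were kept in 4 of the 6 leave-one-out fits, and those of ATP5MK and ATP5MF in 1.

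The peripheral stalk, which keeps the head from turning, had log2 fold changes of 0.087 for ATP5PB, −0.13 for ATP5PD, 0.021 for ATP5PF and 0.22 for ATP5PO. By edgeR none of them was called, with 0 at an unadjusted p under 0.05, 0 by DESeq2 and 1 lower by limma on FPKM, but with library size only ATP5PD was called lower, at −0.27 (adjusted p = 0.0285). The ratio of ATP5F1B to ATP5PD counts was 4.47, 4.90 and 4.85 in control replicates 1 to 3 and 6.20, 6.86 and 7.22 in Sev replicates 1 to 3. This ratio could not overlap between the groups, since every Sev library lay above control in ATP5F1B and below it in ATP5PD. The copies of ATP5PD held 9.43% of its summed counts, and with them added its fold change went from −0.13 to −0.029. ATP5IF1, which stops the enzyme from running backwards and using up ATP, measured 16.0, 17.4 and 16.0 CPM in control replicates 1 to 3 and 16.9, 15.9 and 15.5 CPM in Sev replicates 1 to 3. Its libraries were spread alike in both groups (−0.031 ± 0.10 SE, adjusted p = 0.831).

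The c ring is encoded by 3 genes that give the same mature protein. ATP5MC1, ATP5MC2 and ATP5MC3 held 20.7% ± 0.761, 45.3% ± 2.91 and 34.0% ± 3.66 (SD, n = 3) of their summed FPKM in control and 21.2% ± 2.81, 42.1% ± 4.35 and 36.7% ± 1.63 in Sev. The shares overlapped (exact permutation p = 1, 0.5 and 0.4). ATP5MC1, ATP5MC2 and ATP5MC3 had log2 fold changes of 0.16, 0.032 and 0.24, none of them called, and that of ATP5MC2 was −0.11 with library size only. ATP5MGL and the readthrough gene ATP5MF-PTCD1, both with few counts, stood at 0.36 ± 0.57 and 0.25 ± 1.12 (SE).

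Cytochrome c, the carrier between complexes III and IV whose release also starts apoptosis, measured 88.3, 93.0 and 95.9 CPM in control replicates 1 to 3 and 114, 99.6 and 109 CPM in Sev replicates 1 to 3. Sev replicate 2 was the lowest of its group, above all control libraries, and the adjusted p missed the limit (0.22 ± 0.083 SE, adjusted p = 0.0631). CYCS has 42 annotated pseudogene copies, and they held 5.42% of the summed counts.

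Levels between genes were compared per length, in FPKM as the authors deposited it. As means over the 6 libraries, COX8A stood highest at 139, followed by ATP5F1B at 116, NDUFB7 at 78.8 and COX6A1 at 77.2. The median member was at 9.65 in complex I, 10.9 in complex II, 20.9 in complex III, 21.7 in complex IV and 11.9 in complex V. In complex II SDHB was highest at 24.7 and SDHC lowest at 5.71. Of the members under 2 FPKM, 7 were in complex IV, 2 in complex V, 1 in complex III and 1 in complex I. Those of complex IV were the forms for other tissues or conditions. The length behind each FPKM, taken as count over FPKM, followed the merged exons of all annotated transcripts. It was 1.23 times that of GENCODE 29, with 71 of 82 members within 5% of that ratio. A member with long, rarely used exons would thus get a low value, but exon use was not measured.

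Summed over all members, FPKM was 1641 ± 82.0 (SD, n = 3) in control and 1756 ± 75.1 in Sev, and the groups overlapped. For complex III the sum was 193, 206 and 212 in control replicates 1 to 3 and 234, 213 and 226 in Sev replicates 1 to 3. For complex V it was 347, 371 and 373 in control and 405, 379 and 414 in Sev. In these sums, which carry no TMM factor, the groups of complexes III and V did not overlap. Those of complexes I and IV overlapped, and so did those of complex II, at 51.2, 53.0 and 54.7 in control and 52.8, 46.6 and 55.2 in Sev. With the TMM factors, the summed CPM of all members was 4181, 4665 and 4552 in control replicates 1 to 3 and 5214, 5045 and 5018 in Sev replicates 1 to 3, without overlap. On that scale complex I (1281 to 1433 in control and 1467 to 1515 in Sev) and complex IV (755 to 872 and 919 to 1014) did not overlap either, and complex II did.

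**Figure D4:**
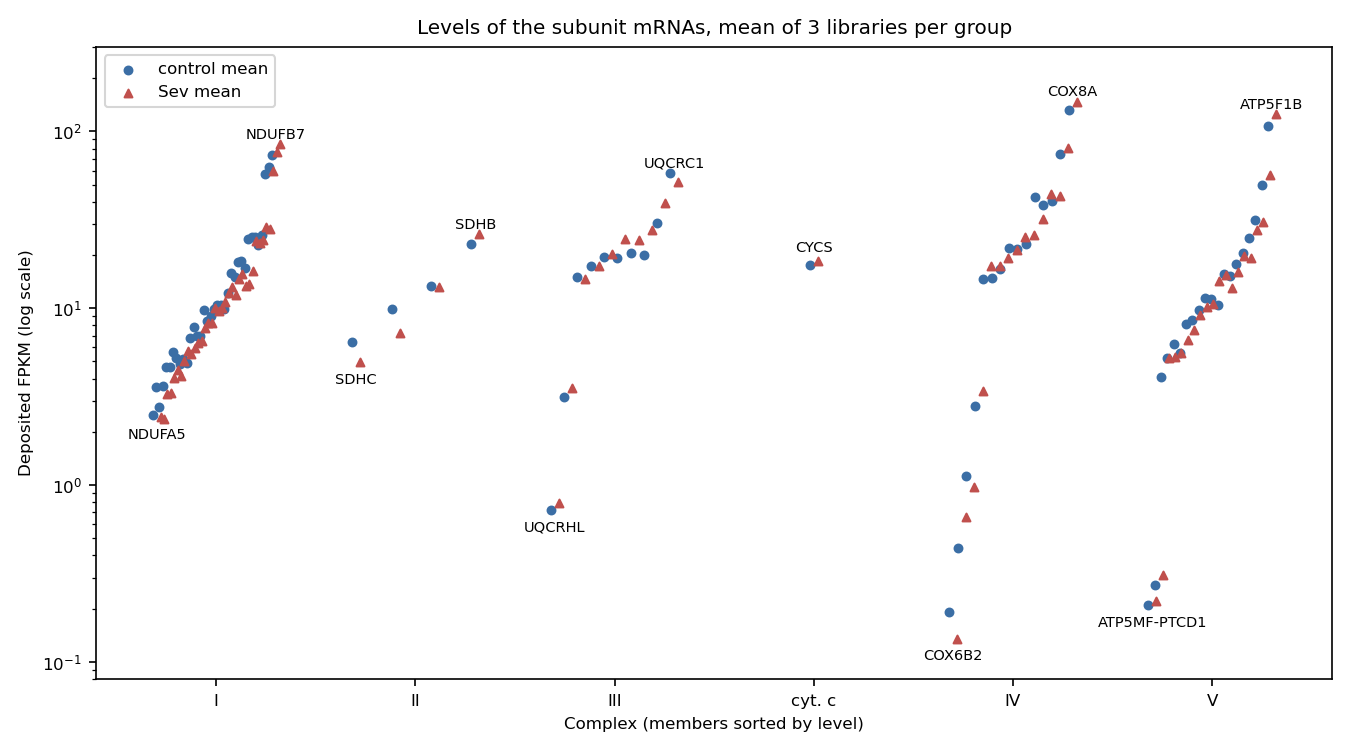
Deposited FPKM, on a log scale, of each tested member as the mean of 3 control libraries (blue circles) and of 3 Sev libraries (red triangles), sorted by level within each complex, with the highest and lowest member named. Levels within a complex span more than a factor of 10 in complexes I, III, IV and V, and the 2 groups lie close together at each member.

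Members were short genes. Their median length, on the scale of count over FPKM, was 3045, against 6214 for tested protein-coding genes. In members that scale ran at a median of 1.23 times the merged exons of GENCODE 29. These values are therefore relative and not true base lengths. Across the 86 tested members the Spearman correlation of the log2 fold change with length was −0.20, with gene span −0.13 and with mean level −0.026, and across 15189 protein-coding genes it was −0.11, −0.088 and 0.060. These are across genes of the same libraries and are given as descriptions. With the trend on length removed from each library, 28 members were called higher and 2 lower. Some members may share reads with other genes, which was not measured. Of the 91, 36 overlap exons of a gene on the opposite strand and 27 exons of a gene on the same strand. Among the 29 called these were 11 and 9. The libraries keep the strand, but whether the counting used it is not given in the sources used here.

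The other genes of respiration were read from 5 lists drawn up from general knowledge. Their counts stand against 22.1% called higher and 21.5% called lower over all tested features. The 13 mRNAs of mitochondrial DNA, which encode the catalytic partners of these subunits, had 1 called higher and 2 lower and a median log2 fold change of −0.0030. MT-ND1, a subunit of complex I, was higher, at 1012, 1266 and 847 CPM in the control libraries and 1440.4, 1795 and 1588 CPM in the Sev libraries (0.63 ± 0.16 SE, adjusted p = 0.0137). MT-CO1, the catalytic subunit of complex IV, was lower, at 5866, 5667 and 4813 CPM in the control libraries and 2959, 3406 and 3361 CPM in the Sev libraries (−0.75 ± 0.11 SE, adjusted p = 0.0017), and MT-ND4L of complex I was lower as well (−0.63 ± 0.14 SE, adjusted p = 0.00799). All counts on mitochondrial genes together made up between 1.13 and 1.76% of a library.

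Of 55 assembly factors 10 were called higher and 7 lower, with a median of 0.080. TMEM70, which helps build complexes V and I, was higher (1.02 ± 0.11 SE, adjusted p = 0.000428), as was HIGD2A, which acts on complex IV and supercomplexes (0.67 ± 0.088 SE, adjusted p = 0.000941). COA5, needed for complex IV, was lower (−0.80 ± 0.15 SE, adjusted p = 0.00472), as was TMEM186, of complex I assembly (−0.88 ± 0.19 SE, adjusted p = 0.00861). Of 20 genes that make coenzyme Q or feed electrons to it, 1 was called higher and 5 lower, with a median of −0.20. COQ8A was the one higher (0.29 ± 0.095 SE, adjusted p = 0.0389), while its paralogue COQ8B (−0.81 ± 0.11 SE, adjusted p = 0.00113) and the methyltransferase COQ5 (−0.86 ± 0.14 SE, adjusted p = 0.00215) were lower. Of 14 genes of the tricarboxylic acid cycle, which supplies NADH and succinate, 4 were higher and 1 lower, with a median of 0.026. SUCLA2 (0.60 ± 0.089 SE, adjusted p = 0.00152) and IDH3B (0.56 ± 0.088 SE, adjusted p = 0.0019) were higher and IDH2 was lower (−0.29 ± 0.081 SE, adjusted p = 0.0231).

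Of 17 regulators of mitochondrial biogenesis 7 were called higher and 2 lower, with a median of 0.30. GABPB2, a partner subunit of GABP, was higher, at 33.6, 33.4 and 36.2 CPM in the control libraries and 114, 103 and 124 CPM in the Sev libraries (1.72 ± 0.094 SE, adjusted p = 4.99e-05). PPRC1, a coactivator related to PGC-1, was higher, at 61.5, 72.5 and 68.2 CPM in the control libraries and 144, 145 and 155 CPM in the Sev libraries (1.13 ± 0.088 SE, adjusted p = 0.000132). NRF1 measured 42.1, 41.9 and 40.8 CPM in the control libraries and 56.3, 61.3 and 63.3 CPM in the Sev libraries and was higher (0.53 ± 0.082 SE, adjusted p = 0.00175). TFAM, which packages and transcribes mitochondrial DNA, measured 39.5, 47.0 and 46.6 CPM in the control libraries and 73.3, 64.0 and 82.0 CPM in the Sev libraries and was higher too (0.72 ± 0.12 SE, adjusted p = 0.00233). In none of these 4 did the groups overlap. PPARGC1A, the coactivator PGC-1 alpha, measured 26.8, 26.8 and 26.2 CPM in the control libraries and 34.9, 33.8 and 28.6 CPM in the Sev libraries and missed the limit (0.29 ± 0.10 SE, adjusted p = 0.0533). Called lower were ESRRG, a nuclear receptor that acts on respiratory genes (−1.24 ± 0.18 SE, adjusted p = 0.0013), and TFB1M, which methylates mitochondrial ribosomal RNA (−1.03 ± 0.16 SE, adjusted p = 0.00205). The fold changes of these regulators ranged from −1.24 to 1.72, wider than the −0.46 to 0.73 of the nuclear subunits.

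**Figure D5:**
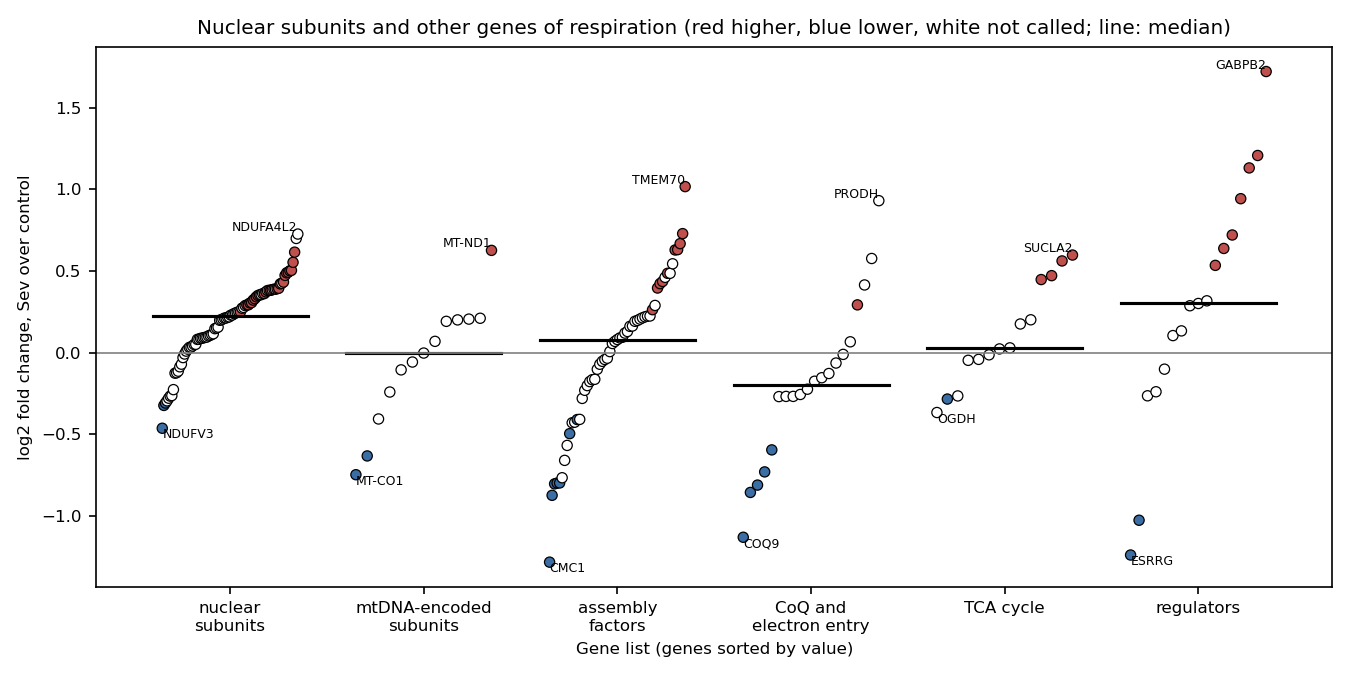
Log2 fold change of Sev over control for each tested gene of the nuclear subunits and of 5 other lists, sorted within each list, with the highest and lowest gene named. Red points were called higher, blue lower and white not called at an adjusted p under 0.05, and the line is the list's median. With TMM scaling the medians were 0.22 for the nuclear subunits, −0.0030 for the subunits of mitochondrial DNA, 0.080, −0.20, 0.026 and 0.30 for the other lists from left to right, and all but those of the nuclear subunits and the regulators were below 0 with library size only.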

How the data were processed

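RNA of 3 control and 3 Sev libraries of U251 cells was grouped by the labels. The authors deposited whole-number counts per gene, not normalized, and FPKM values, scaled to gene length and to the size of the library. The submitters' processing notes name bcl2fastq 2.19, featureCounts and hg18, and the aligner is not given in the sources used here. Since the table holds Ensembl identifiers of later annotations, positions, strands and gene types were joined by identifier from GENCODE 29 on GRCh38. No coordinate was taken from hg18.

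Library totals of 38624292 to 46318311 counts and 3 replicates a group set the precision. Counts were fitted on the whole table in R 4.3.3 with edgeR 4.0.16 (filterByExpr, TMM, glmQLFit and glmQLFTest), with no covariate and Benjamini-Hochberg adjustment over all tested features at a limit of 0.05. SE is the absolute log2 fold change over the square root of the F statistic. CPM carries TMM factors and no prior count. The alternatives were DESeq2 1.42.0, other scalings and filters, protein-coding genes only, a length trend, pseudogene copies, the replicate block, each library left out and limma 3.58.1 on log2(FPKM + 1) or log2(FPKM + 0.1) where FPKM reached 0.5 in 3 or more libraries, and the former also unfiltered. Isoform shares were compared by exact two-sided permutation in Python 3.11.15 with scipy 1.17.1. The fit was tested on simulated data.

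Values in every library are given for up to 3 called members of smallest p per complex and direction, for a set list of core or catalytic subunits (without NDUFS7 and NDUFS8) and for ATP5IF1, with tissue forms given as shares. From each other list up to 2 called genes per direction are named, plus PPARGC1A, NRF1 and TFAM. NDUFC2, NDUFS3, SDHC, UQCR10, UQCRB, UQCRC2, COX7C, COX7A2L, ATP5F1D and ATP5ME, the ratios, the remaining fold changes quoted, the promoter motifs and the pseudogene values were chosen after values were seen. The result for 1 member is not reported here by itself, though it counts in the totals. The members and lists were chosen with earlier results of these data known.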

Additional observations from a re-analysis of the deposited data

How the results depend on the processing

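Precision was limited by 3 libraries a group and, for the tissue forms, by low counts, and the calls depended on the scaling. Read sharing may limit it too, which was not measured. All 29 called members kept their direction in all 18 alternatives. They were picked by adjusted p in the main fit, and the alternatives used the same libraries, so their signs were unlikely to turn. The call was kept by 29 with the DESeq2 Wald test, 28 with DESeq2's size factors, 9 with library size only and 12 with limma on log2(FPKM + 1). The cause of these losses was not tested. Members called higher and lower, 26 and 3 in the report, were 6 and 9 with library size only, 9 and 9 with limma on log2(FPKM + 1) or log2(FPKM + 0.1), 4 and 9 without a filter on FPKM, and 16 and 1 without an expression filter. With protein-coding genes only, 5 were lower. Leaving out 1 library gave 10 to 29 higher and 1 to 3 lower. The replicate block gave 15 higher and 1 lower; same-numbered libraries did not deviate together (r = −0.0072, 0.0035 and 0.027), and not every library correlated best with its own number, so the numbers pair nothing known.

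The members' median of 0.22 was 0.085 with library size only and 0.074, 0.068 and 0.065 with limma on log2(FPKM + 0.1), log2(FPKM + 1) and the latter without filter. Features called higher were 3623 and 3676 in the filtered FPKM fits, and 3447 higher and 3433 lower with protein-coding genes only. Genes of the 5 other lists called higher were 15 with library size only and 14 in each FPKM fit, and those called lower were 30 with library size only and 27 with limma on log2(FPKM + 1).

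Signs turned in members that were not called. Of the 86 members tested, 18 turned from above to below 0 with library size only, and 19 turned when 1 library was left out. Among those followed through all settings, library size only gave −0.11 for ATP5MC2, −0.032 for SDHA and −0.034 for UQCRC2. With limma on log2(FPKM + 0.1) they were −0.12, −0.034 and −0.038, and on log2(FPKM + 1), filtered or not, −0.11, −0.032 and −0.036. ATP5MC2 was −0.0085 with protein-coding genes only, COX7A1 0.012 with the length trend removed, SDHA −0.24 with copies added, and UQCRC1 0.0067 with either DESeq2 setting. Leaving out 1 library gave −0.066 to 0.0020 for ATP5IF1, −0.055 to 0.16 for ATP5MC2, −0.25 to 0.17 for COX7A1 and −0.072 to 0.061 for UQCRC1.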
